A study of Mus musculus with 10 samples.

Results

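The collagen genes of mouse liver were described across 10 whole livers in which RNA had been counted per gene. Members were taken by their gene symbol, which had to start with Col, a number, the letter a and a digit, and by a total count of 15 or more over the 10 livers. Of 24537 symbols in the table, 45 had such a name and 35 reached the minimum. Of these, 34 encode collagen chains. The remaining one, Col4a3bp, encodes the ceramide transfer protein and only shares the letters; its level lay between 26.6 and 37.8 CPM (counts scaled to library size) in the 10 livers, and it was kept out of every count of collagens below. Just inside the minimum stood Col10a1 with 16 counts, and just outside it Col17a1 with 12. The other symbols left out were Col22a1 with 9 counts, Col28a1 with 6, Col9a2 with 4, Col11a1 with 2, Col2a1 with 1, and Col19a1, Col26a1, Col6a4 and Col9a1 with none.

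Collagens are matrix proteins whose chains wind around each other into a rope-like helix. Fibrillar collagens (types I, III, V, XI, XXIV and XXVII) assemble into the cross-linked fibrils that give a tissue its tensile strength. Network-forming type IV collagen and the multiplexins XV and XVIII belong to basement membranes, the thin sheets under epithelia and around vessels. The remaining types decorate fibrils, form beaded filaments, anchor one structure to another or span the cell membrane. In liver, hepatic stellate cells and portal fibroblasts are the known makers of most fibrillar collagen, scar tissue is rich in types I and III, and hepatocytes are a known source of type XVIII.

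All livers came from male mice given an AAV8 vector (an adeno-associated virus that homes to the liver) for editing of hepatocytes, with saCas9, the Cas9 of Staphylococcus aureus, under the hepatocyte promoter TBG, so every control also carries virus and nuclease. Young controls (n = 3) received a guide against Rosa26, a locus used as a neutral target, at 7 months and were 9 months old at collection. Old controls (n = 3) received the Rosa26 guide at 23 months and were 25 months old. The livers labelled Cd44 knockout (n = 4) were of the same old age and received a guide against Cd44, a cell surface receptor for hyaluronan: guide 4 in replicates 1 and 2 and guide 2 in replicates 3 and 4. Cd44 itself was 14.2, 29.99 and 25.9 CPM in the old controls and 18.9, 29.0, 17.6 and 13.1 CPM in the knockout-labelled livers, groups that overlap (log2 fold change −0.25, adjusted p = 0.896 in edgeR's quasi-likelihood test). The editing is aimed at hepatocytes only and small insertions or deletions need not change a transcript's count, so the count of Cd44 in whole liver does not check the label. The group is called knockout-labelled throughout.

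Total counts were 15821198 to 21710228 per liver, and the smallest amount treated as detectable, 3 counts, equals 0.131 to 0.198 CPM. Collagens took between 0.0993% and 0.177% of the counts of a liver. Hepatocyte markers summed to 109682 to 140860 CPM in young, 85955 to 122380 CPM in old control and 95307 to 97735 CPM in knockout-labelled livers. The highest sum among old controls was in old control 3. In bulk tissue, fewer cells of a type and less RNA per cell cannot be told apart.

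Of the 34 collagen chains, 28 had enough counts to be tested and 6 of them rose from young to old control livers when the adjusted p of the quasi-likelihood test in edgeR had to be under 0.05. These were Col5a1, Col14a1, Col6a1, Col3a1, Col6a3 and Col4a2, with fitted folds from 1.55 for Col4a2 to 2.35 for Col5a1. None fell. The 6 are 21.4% of the chains tested, beside 22.8% of all 13909 genes tested that were called in either direction, 14.1% called higher and 8.66% called lower. By class, 2 of 8 fibrillar chains, 1 of 7 basement membrane chains and 3 of 13 other chains were called. The median log2 fold change over the 28 chains was 0.64, against 0.04 over all genes, and 22 of 28 (78.6%) were above 0 against 52.4% of all genes. Chains with differences as large that missed the threshold, such as Col1a1, Col1a2 and Col16a1, are given with their classes.

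The age calls rested on few livers. Without young liver 2, no chain was called, and only 396 of all genes were. Without old control liver 2 only Col14a1 was called, and without young liver 1 only Col14a1 and Col5a1. Without old control liver 3 there were 10 calls, and 5327 over all genes. A fit of the young and old control livers alone called 1 chain, Col5a1, and scaling by total counts alone, which moved the median log2 change of all genes by 0.31, called 12. Of the 6 fits that each left out a young or an old control liver, Col14a1 was called in 5, Col5a1 in 4, Col3a1 and Col4a2 in 3, Col6a1 in 2 and Col6a3 in 1.

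Between old controls and knockout-labelled livers, no chain passed at an adjusted p under 0.05 (0 of 28, beside 0% of all genes). At an unadjusted p under 0.05 there were 5 chains, all lower in the knockout-labelled livers: Col4a2, Col13a1, Col18a1, Col14a1 and Col5a1. That is 17.9% of the chains, beside 4.02% of all genes lower at that p. In either direction the share of all genes was 6.59%. DESeq2 called 0 chains as well. The median log2 fold change was −0.37 over the chains and −0.02 over all genes, and 22 of 28 were below 0. Both comparisons use the same 3 old controls, so a chain that is high in these livers moves up in the first and down in the second.

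**Figure D1:**
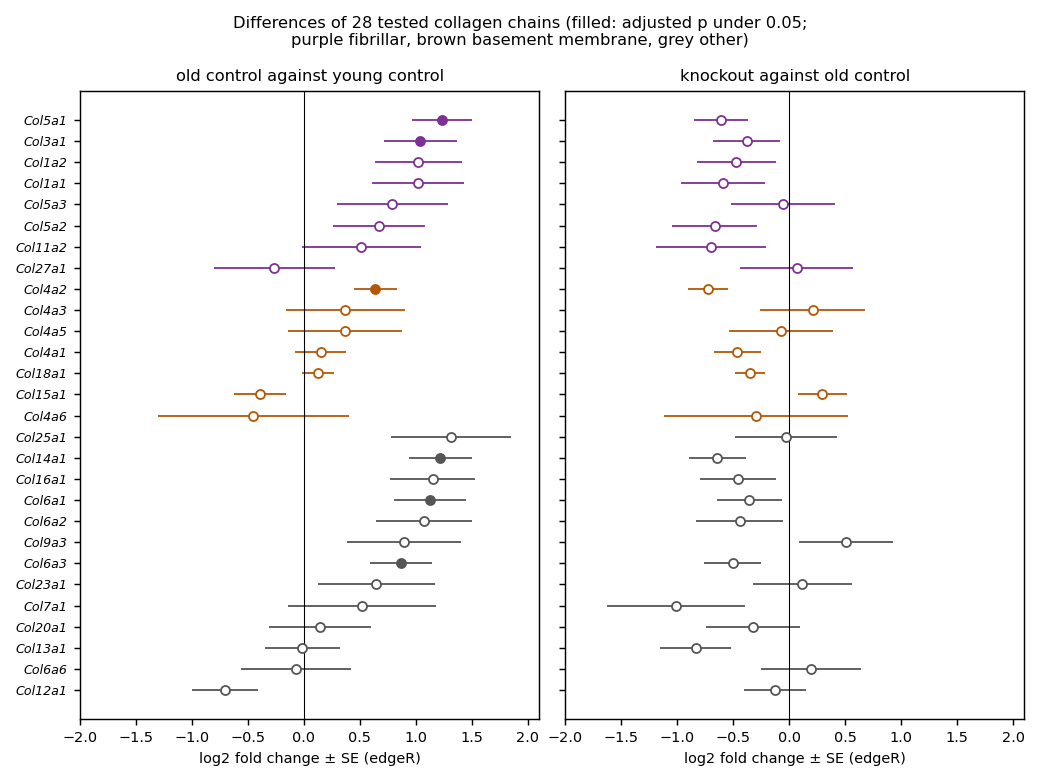
Log2 fold change with its standard error (edgeR) for each of the 28 tested collagen chains, old against young controls on the left and knockout-labelled against old controls on the right. Filled points have an adjusted p under 0.05; the 6 filled points stand on the left, to the right of 0, and the right panel has none.

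Levels between chains can be set side by side only per length of transcript. As CPM per kilobase of the longest annotated coding transcript, Col18a1 led with a median of 154 over the 10 livers (range 123 to 200), far above every other chain. It was followed by Col5a3 with a median of 14.8 and Col27a1 with 7.78, both fibrillar chains. Col3a1 (5.74), Col4a1 (5.50) and Col14a1 (4.53) came next, and their ranges over livers overlap. Col6a1 (3.31), Col1a2 (3.18), Col4a2 (3.17), Col1a1 (2.45) and Col15a1 (2.09) stood close together, with ranges that overlap as well. Col6a5 was lowest, at a median of 0.0205. By raw share, Col18a1 alone took 56.2% to 78.4% of all collagen counts of a liver, and the 3 chains of types I and III together only 1.79% to 9.19%.

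**Figure D2:**
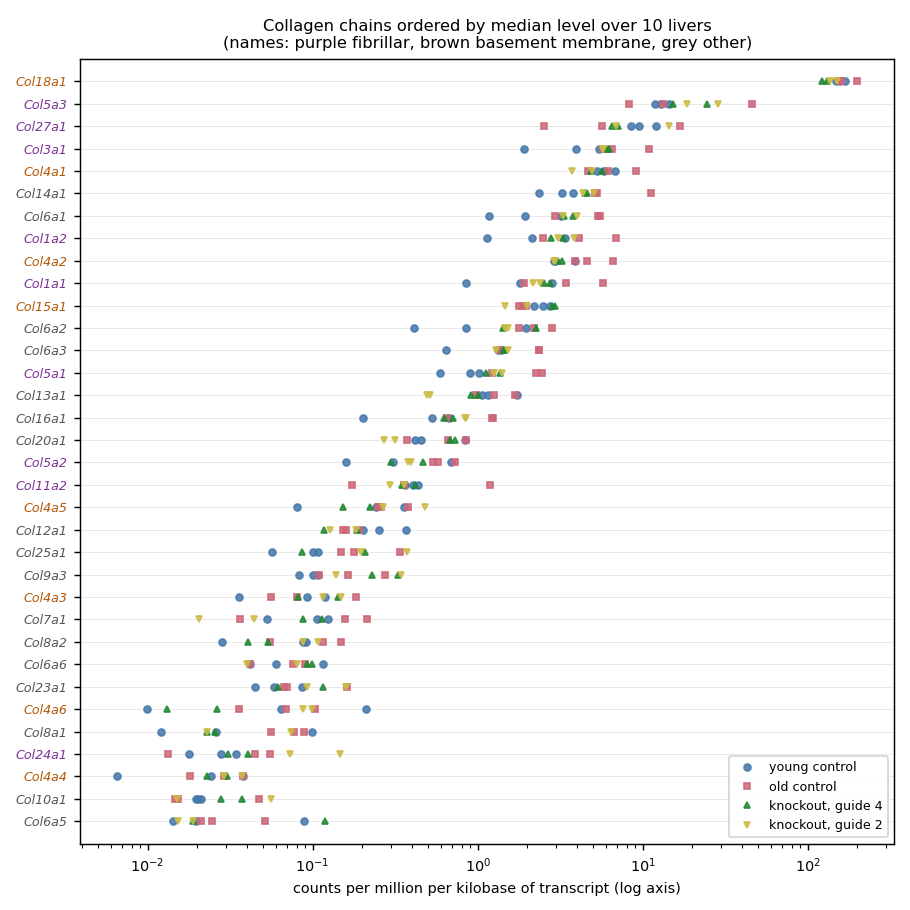
Level of each of the 34 collagen chains in each liver, as CPM per kilobase of transcript on a log axis, ordered by the median; colours and shapes mark the 4 sets of livers. Col18a1 sits between 123 and 200 in every liver, and no chain of type I or III exceeds 11.0 in any liver.

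Among the fibrillar chains, type I collagen is built from Col1a1 and Col1a2. Col1a1 (chromosome 11, 94936224 to 94953042, plus strand, GRCm38) was 10.6, 5.01 and 16.7 CPM in young livers 1 to 3, 20.4, 34.0 and 11.4 CPM in old controls 1 to 3, and 14.9, 16.3, 14.1 and 12.9 CPM in knockout-labelled livers 1 to 4. The age groups overlap, because old control 3 was below young 3. Its mean was 10.8 ± 5.86 CPM (SD, n = 3) in young and 21.9 ± 11.4 CPM (SD, n = 3) in old controls, a log2 difference of 1.02 that missed the threshold (adjusted p = 0.0940). Col1a2 (chromosome 6, 4504814 to 4541544, plus strand) gave nearly the same picture, with 11.4, 6.07 and 18.1 CPM in young, 21.97, 36.9 and 13.4 CPM in old control and 14.9, 17.5, 20.4 and 16.5 CPM in knockout-labelled livers (log2 difference with age 1.02, adjusted p = 0.0781). The ratio of Col1a1 to Col1a2 counts lay between 0.826 and 0.935 in the 6 control livers. It was 1.004 and 0.930 in the guide 4 livers and 0.691 and 0.781 in the guide 2 livers. Several chain ratios were computed, and this one, from 2 livers for each guide, is given without a test.

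Col3a1, the single chain of type III collagen, is found with type I in reticular fibres. It lies on chromosome 1 (45311538 to 45349706, plus strand). Young livers had 21.97, 10.6 and 30.4 CPM, old controls 36.4, 61.1 and 31.8 CPM, and knockout-labelled livers 34.0, 34.6, 31.9 and 32.0 CPM. Every old liver, control or knockout-labelled, was above every young liver, and the margin was narrow. The rise with age was 1.04 on the log2 scale (SE 0.33, adjusted p = 0.0416). Knockout-labelled livers differed from old controls by −0.38 (adjusted p = 0.820).

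Type V collagen sits inside type I fibrils and sets their width. Its main chain Col5a1 (chromosome 2, 27886425 to 28039514, plus strand) had 7.59, 4.95 and 8.55 CPM in young livers, 18.9, 20.5 and 10.2 CPM in old controls and 9.41, 11.6, 10.6 and 11.8 CPM in knockout-labelled livers. Again all 7 old livers lay above all 3 young ones, and old control 3 lay among the knockout-labelled livers. The age difference of 1.23 (SE 0.27) had an adjusted p of 0.0129, the smallest among the chains. Against old controls, the knockout-labelled livers were at −0.61 (unadjusted p = 0.0281, adjusted p = 0.744). The second chain, Col5a2, was low, with 2.02, 1.06 and 4.56 CPM in young, 3.54, 4.83 and 3.82 CPM in old control and 1.98, 3.10, 2.496 and 2.63 CPM in knockout-labelled livers. All 4 knockout-labelled livers were below all 3 old controls for Col5a2, with a log2 difference of −0.67 that missed the threshold (adjusted p = 0.786).

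**Figure D3:**
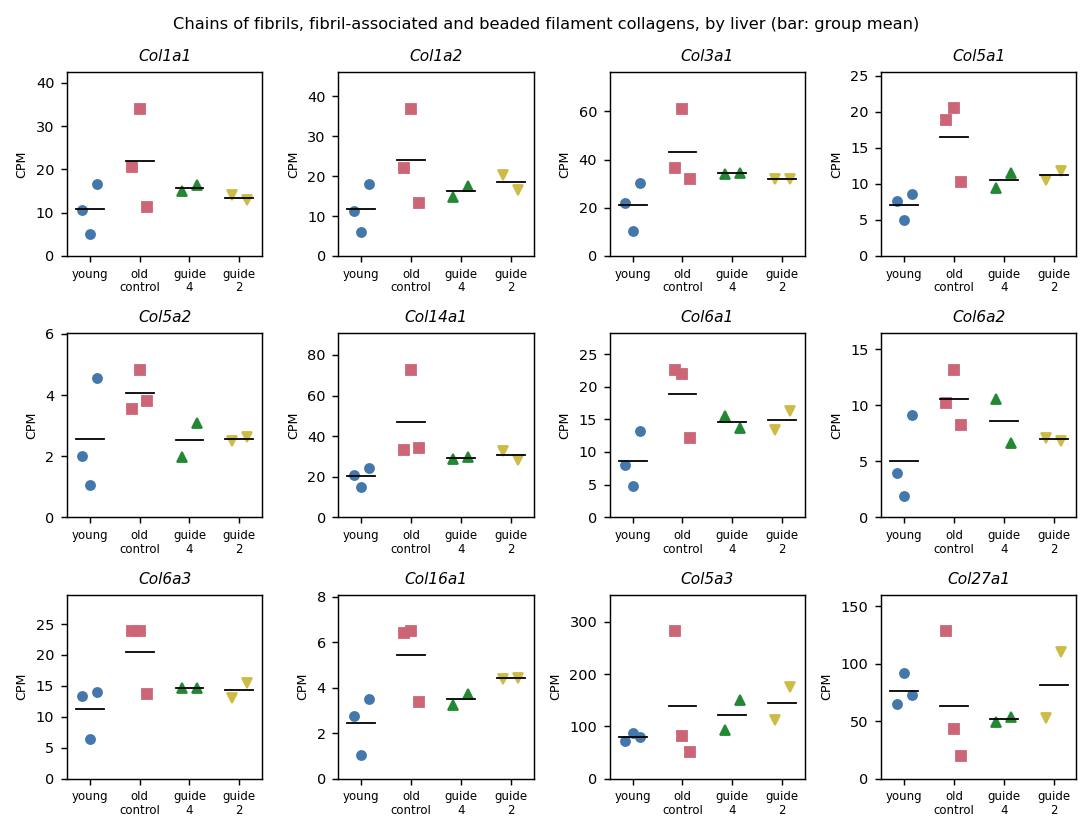
CPM of 12 fibrillar, fibril-associated and beaded filament chains in each liver, with the group mean as a bar, for young controls, old controls and the 2 guides of the knockout-labelled group. Old control 2 has the highest point for Col1a1, Col1a2, Col3a1, Col5a1, Col5a2, Col6a2, Col14a1 and Col16a1, whereas Col5a3 and Col27a1 peak in old control 1.

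Col5a3, the remaining type V chain, and Col27a1, a fibrillar chain known from cartilage, did not follow the other fibrillar chains. Col5a3 (chromosome 9, 20770050 to 20815067, minus strand) was 72.5, 88.1 and 79.1 CPM in young livers, 282, 81.8 and 50.6 CPM in old controls and 93.4, 150, 113 and 175 CPM in knockout-labelled livers. Col27a1 (chromosome 4, 63214004 to 63334991, plus strand) was 64.6, 91.5 and 72.7 CPM in young livers, 128, 43.3 and 19.2 CPM in old controls and 49.5, 53.9, 52.8 and 110 CPM in knockout-labelled livers. Both were highest of all 10 livers in old control 1 and lowest in old control 3, and both were second highest in knockout-labelled liver 4. Neither passed the age test, with 0.79 (adjusted p = 0.264) for Col5a3 and −0.26 (adjusted p = 0.748) for Col27a1, and both directions depended on 1 liver. Without old control 1, Col5a3 was at −0.27 and Col27a1 at −1.29 (adjusted p = 0.0481). Without old control 3, they were at 1.18 (adjusted p = 0.0437) and 0.16. Scaling by total counts alone put Col27a1 at 0.09, below the median of 0.34 over all genes with that scaling.

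The 250 bases before the start that RefSeq lists for 4 fibrillar genes are printed because they stand for the contrasting patterns across livers, Col3a1 and Col5a1 for the first and Col5a3 and Col27a1 for the second. They were read from RefSeq's promoter table on GRCm38.p6, which held 28 of the 34 chains, and none of the 4 windows holds an annotated exon. The window of Col27a1 lies inside the span of the gene given above, which begins at 63214004 in GENCODE, so the annotations place the start of this gene differently. Capitals mark the motifs searched on both strands: the TATA box letters TATAAA, whose reverse complement reads TTTATA, the CCAAT box, which reads ATTGG on the opposite strand, and the GC box letters GGGCGG, whose reverse complement reads CCGCCC. Each sequence runs 5′ to 3′ on the strand of its gene.
Col3a1 (chr1:45311288-45311537, plus strand): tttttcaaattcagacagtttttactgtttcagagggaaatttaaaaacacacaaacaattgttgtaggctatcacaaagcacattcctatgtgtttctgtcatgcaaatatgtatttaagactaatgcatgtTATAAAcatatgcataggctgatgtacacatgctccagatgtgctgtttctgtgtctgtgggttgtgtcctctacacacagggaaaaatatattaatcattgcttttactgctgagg
Col5a1 (chr2:27886175-27886424, plus strand): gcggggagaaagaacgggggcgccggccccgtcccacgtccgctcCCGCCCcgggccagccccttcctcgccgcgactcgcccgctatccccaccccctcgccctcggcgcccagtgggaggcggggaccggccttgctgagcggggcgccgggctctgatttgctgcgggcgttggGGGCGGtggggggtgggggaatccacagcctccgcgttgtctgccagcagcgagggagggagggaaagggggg
Col5a3 (chr9:20815068-20815317, minus strand): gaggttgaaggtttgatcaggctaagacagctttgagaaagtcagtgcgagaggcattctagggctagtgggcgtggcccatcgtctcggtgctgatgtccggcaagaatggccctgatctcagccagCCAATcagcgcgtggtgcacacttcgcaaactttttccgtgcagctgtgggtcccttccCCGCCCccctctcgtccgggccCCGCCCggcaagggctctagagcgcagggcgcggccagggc
Col27a1 (chr4:63215162-63215411, plus strand): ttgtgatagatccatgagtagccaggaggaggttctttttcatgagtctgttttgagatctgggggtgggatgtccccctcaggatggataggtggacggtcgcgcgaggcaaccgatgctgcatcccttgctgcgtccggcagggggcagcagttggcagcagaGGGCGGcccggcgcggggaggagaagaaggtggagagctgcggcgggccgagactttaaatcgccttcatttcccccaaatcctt
The Col3a1 window is 35.2% G and C and holds a TATAAA that begins 117 bases before the start. The Col5a1 window is 76.4% G and C with GGGCGG at 73 and, on the other strand, at 205 bases before the start. Col5a3 (62.8% G and C) has a CCAAT at 122 and GGGCGG on the other strand at 63 and 41, and Col27a1 (59.6%) a GGGCGG at 85. In these 4 windows no marked motif overlaps another. Over all 28 collagen windows, GGGCGG occurred in 18 (64.3%), CCAAT in 9 (32.1%) and TATAAA in 4 (14.3%), against 32.9%, 34.5% and 13.0% of 27025 promoter windows of the same length. GGGCGG was thus present in windows of both patterns. A match is a description of these letters only.

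Of the remaining fibrillar chains, Col11a2, a chain of type XI collagen, lay between 1.05 and 2.64 CPM in 9 livers and reached 7.20 CPM in old control 2. Col24a1 was between 0.0954 and 1.05 CPM, too low for the test of age.

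Of the 7 basement membrane chains tested, Col4a2 was the one called with age. Type IV collagen of most basement membranes is built from Col4a1 and Col4a2, whose genes lie head to head on chromosome 8 with starts that overlap by 22 bases. Col4a2 (11312805 to 11449287, plus strand) had 18.6, 18.9 and 25.2 CPM in young livers, 25.1, 42.9 and 29.5 CPM in old controls and 20.9, 19.9, 18.8 and 19.0 CPM in knockout-labelled livers. It rose with age by 0.64 (SE 0.19, adjusted p = 0.0371), although the lowest old control fell just inside the young range. All 4 knockout-labelled livers were below the 3 old controls and within the young range, a log2 difference of −0.72 from old controls (SE 0.18, unadjusted p = 0.00174, adjusted p = 0.744).

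Its partner Col4a1 (11198423 to 11312826, minus strand) had 38.6, 35.0 and 44.9 CPM in young, 30.7, 60.2 and 40.6 CPM in old control and 37.8, 32.0, 32.7 and 24.8 CPM in knockout-labelled livers. Those groups overlap throughout, with an age difference of 0.15 (adjusted p = 0.656) that turned to −0.15 without old control 2. The ratio of Col4a1 to Col4a2 counts was 2.08, 1.85 and 1.78 in young livers, 1.22, 1.40 and 1.38 in old controls and 1.81, 1.60, 1.74 and 1.30 in knockout-labelled livers. Young and old control ratios did not overlap, and 3 of the 4 knockout-labelled livers lay between them or inside the young range. This ratio was chosen after its values were seen and is given without a test.

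**Figure D4:**
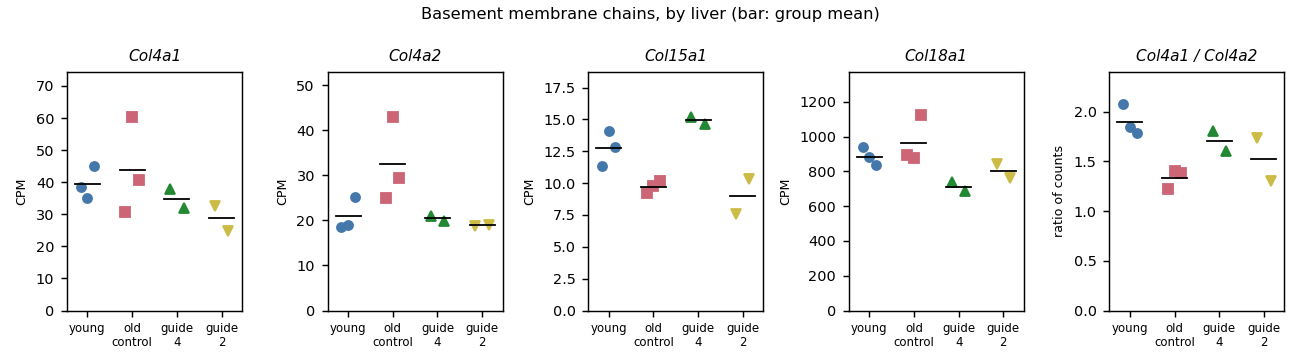
CPM of the 4 most abundant basement membrane chains in each liver, and the ratio of Col4a1 to Col4a2 counts, with the group mean as a bar. The old control ratios of 1.22 to 1.40 lie below the young ratios of 1.78 to 2.08.

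Col18a1, whose C-terminal fragment is endostatin, was the most abundant collagen in every liver (chromosome 10, 77052178 to 77166548, minus strand). It had 940, 882 and 834 CPM in young livers, 895, 879 and 1121 CPM in old controls and 737, 687, 843 and 764 CPM in knockout-labelled livers. Age gave 0.13 (adjusted p = 0.558). Every knockout-labelled liver was below every old control, with a log2 difference of −0.35 (SE 0.14, unadjusted p = 0.0258, adjusted p = 0.744). In CPM, 3 of the 4 were below every young liver too, but this was lost with total counts alone as the scale. The scaling factors (TMM) were 0.823 to 0.897 in young and 1.05 to 1.11 in knockout-labelled livers. Col15a1, the other multiplexin, had 11.3, 14.1 and 12.9 CPM in young, 9.19, 9.80 and 10.2 CPM in old control, 15.2 and 14.6 CPM in guide 4 and 7.58 and 10.3 CPM in guide 2 livers. In CPM, old controls were all below young livers, at −0.39 (adjusted p = 0.241), but these groups overlapped with total counts alone as the scale. Col4a3, Col4a4, Col4a5 and Col4a6, chains best known from kidney and other specialised basement membranes, stayed at or below 3.15 CPM in every liver and gave no call.

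The other classes held calls in type VI collagen, which forms beaded filaments around cells. Its Col6a1 chain (chromosome 10, 76708792 to 76726168, minus strand) had 7.96, 4.82 and 13.2 CPM in young livers, 22.6, 21.9 and 12.1 CPM in old controls and 15.6, 13.7, 13.4 and 16.3 CPM in knockout-labelled livers. It rose with age by 1.12 (SE 0.32, adjusted p = 0.0312), with old control 3 below young 3. Col6a3 (chromosome 1, 90765923 to 90843971, minus strand), the longest of its main chains, had 13.4, 6.46 and 13.9 CPM in young, 23.9, 23.9 and 13.7 CPM in old control and 14.6, 14.7, 13.0 and 15.5 CPM in knockout-labelled livers. The rise was 0.86 (SE 0.28, adjusted p = 0.0458), with old controls 1 and 2 above every young liver and old control 3 inside the young range. Col6a2 had 3.98, 1.91 and 9.12 CPM in young and 10.2, 13.1 and 8.25 CPM in old control livers, 1.07 on the log2 scale with an adjusted p of 0.0928.

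Fibril-associated collagens sit on the surface of fibrils. Col14a1 (chromosome 15, 55307750 to 55520803, plus strand), which binds decorin, had 20.9, 15.1 and 24.4 CPM in young livers, 33.3, 72.7 and 34.2 CPM in old controls and 28.9, 29.6, 32.8 and 28.2 CPM in knockout-labelled livers. In CPM the 3 groups did not overlap: young livers were lowest, knockout-labelled livers in between and old controls highest. The margin between the last 2 groups was narrow, 32.8 against 33.3 CPM. It was lost with total counts alone as the scale, where knockout-labelled liver 3 lay above old control 3. The age difference was 1.21 (SE 0.28, adjusted p = 0.0152) and fell to 0.74 without old control 2, still called (adjusted p = 0.0390). The knockout-labelled livers were at −0.64 against old controls (unadjusted p = 0.0281, adjusted p = 0.744). Col16a1 stood just outside the threshold, with 2.75, 1.06 and 3.48 CPM in young, 6.39, 6.47 and 3.39 CPM in old control and 3.25, 3.71, 4.38 and 4.43 CPM in knockout-labelled livers (1.15, adjusted p = 0.0502). Col12a1 went the other way, with 2.33, 4.22 and 2.91 CPM in young and 2.21, 1.82 and 1.76 CPM in old control livers (−0.70, adjusted p = 0.105). These groups do not overlap in CPM but do with total counts alone as the scale.

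The remaining chains were low. Col13a1, a transmembrane collagen, had 3.67, 3.36 and 5.51 CPM in young, 3.98, 3.10 and 5.34 CPM in old control, 3.20 and 2.88 CPM in guide 4 and 1.55 and 1.63 CPM in guide 2 livers. It was not called with age (−0.02, SE 0.33, adjusted p = 0.977). In knockout-labelled livers it was at −0.84 against old controls (unadjusted p = 0.0222, adjusted p = 0.744). Col25a1, another transmembrane chain, had 0.673, 0.726 and 0.380 CPM in young and 2.26, 1.19 and 1.002 CPM in old control livers, groups that do not overlap (1.31, adjusted p = 0.0971). Col9a3 did not overlap between the age groups either, at 0.253 to 0.330 CPM in young and 0.334 to 0.836 CPM in old controls, only a few counts above the smallest detectable amount. In all, old controls lay wholly above young livers in 5 of 28 chains (Col3a1, Col5a1, Col14a1, Col9a3 and Col25a1), beside 19.7% of all genes, and wholly below in 2 (Col15a1 and Col12a1), beside 18% of all genes. Those 2 overlapped with total counts alone as the scale. Knockout-labelled livers lay wholly below old controls in 4 chains (Col18a1, Col4a2, Col5a2 and Col14a1), beside 3.26% of all genes, and wholly above in 0, beside 2.84%. For Col14a1 this was lost with total counts alone as the scale. Col7a1, Col20a1, Col23a1 and Col6a6 gave no call, and Col6a5, Col8a1, Col8a2, Col10a1 and Col4a4 were too low for the test.

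Knockout-labelled livers were also set beside the young controls, which differ from them in age as well as in guide. No chain was called (0 of 28, beside 11.6% of all genes). Closest were Col12a1 at −0.83 (adjusted p = 0.0694), Col9a3 at 1.40 (adjusted p = 0.0738) and Col13a1 at −0.85 (adjusted p = 0.0942). At an unadjusted p under 0.05 there were 6 chains (beside 33.3% of all genes), the other three being Col6a1 at 0.77, Col25a1 at 1.28 and Col5a1 at 0.62. DESeq2 called 1 chain, Col12a1, and the fit restricted to these 2 groups called 5.

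Each guide was then compared on its own, with 31 chains tested among 14153 genes. Guide 2 livers against old controls gave 0 calls (beside 0.0495% of all genes), and DESeq2 called 1, Col13a1. At an unadjusted p under 0.05 there were 6 of 31 chains, 5 of them lower with guide 2, beside 7.12% of all genes in either direction. Guide 4 livers against old controls gave 0 calls (beside 0% of all genes). At an unadjusted p under 0.05 there were 3 of 31 chains, 2 of them lower with guide 4, beside 3.91% of all genes in either direction. Between the guides there were also 0 calls (beside 0.0212%) and 4 of 31 chains at an unadjusted p under 0.05 (beside 4.4%). These were Col15a1, higher with guide 4 by 0.74 (adjusted p = 0.488), Col20a1 by 1.27, Col13a1 by 0.93, and Col24a1, lower with guide 4 at −1.60. There were 2 livers for each guide, and a p that misses the threshold does not show that the guides act alike.

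Across livers, the chains fell into a few shapes, which the map of levels relative to young livers shows. Old control 2 had the highest level of all 10 livers in 12 of 28 chains, among them Col1a1, Col1a2, Col3a1, Col5a1, Col4a1, Col4a2 and Col14a1. Young 2 had the lowest in 12, among them Col1a1, Col1a2, Col3a1, Col5a1, Col6a1, Col6a2, Col6a3 and Col14a1. Old control 1 was highest in 7, with Col5a3, Col27a1, Col6a1 and Col6a3 among them, and old control 3 in 1, Col18a1. The 6 chains that rose with age had a median coefficient of variation of 31.8% among young livers, 32.3% among old controls and 6.93% among the knockout-labelled livers, against 12.2%, 22.4% and 13.4% over all genes. The same medians over all 28 tested chains were 35.3%, 36.2% and 24.1%. The spread was smallest in the knockout-labelled livers for each of the 6 and for 11 of the 28. The fit that called the 6 pools the spread of all 3 groups, so a small spread in knockout-labelled livers favoured a call. The small spread of the 6 in these livers is therefore no separate result. The 6 were chosen as high in the same old controls, so where their knockout-labelled means stand against these controls is no result. Over the 28 chains that mean was below the old control mean in 22, and it stood between the young and old control means in 15.

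**Figure D5:**
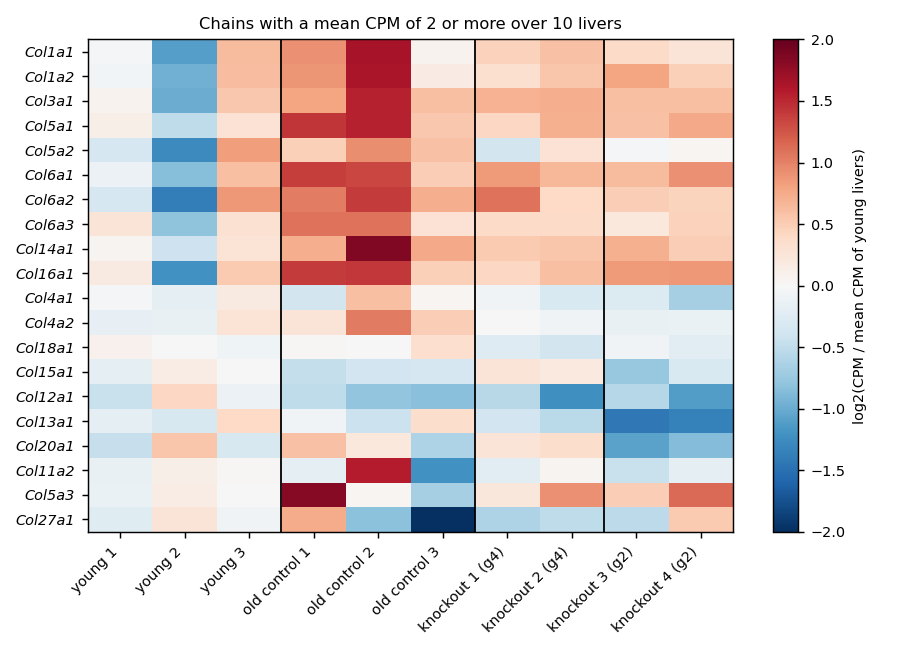
Log2 of the CPM in each liver over the mean CPM of the young livers, for the 20 collagen chains with a mean of 2 CPM or more over 10 livers. Old control 2 is dark red for Col1a1, Col1a2, Col3a1, Col5a1 and Col14a1, young 2 is blue for the same chains, and the bottom rows, Col5a3 and Col27a1, run from red in old control 1 to blue in old control 3.

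Summed by class, the fibrillar chains gave 212 ± 19.9 CPM in young livers (SD, n = 3), 315 ± 187 CPM in old controls (SD, n = 3) and 280 ± 62.5 CPM in knockout-labelled livers (SD, n = 4). Without Col5a3 and Col27a1 the sums were 55.8 ± 25.2, 113 ± 47.3 and 81.0 ± 3.59 CPM in the same order. Basement membrane chains gave 961 ± 46.1, 1055 ± 130 and 825 ± 61.8 CPM, almost all of it Col18a1. The other classes gave 61.4 ± 17.5, 117 ± 33.9 and 82.6 ± 2.76 CPM. All collagens summed to 1206 to 1264 CPM in young, 1430 to 1594 CPM in old control and 1120 to 1268 CPM in knockout-labelled livers. In these sums the old controls stood above both other groups, but partly through different chains. In old control 1, Col5a3 was 282 CPM and Col27a1 128 CPM, while Col18a1 at 895 CPM was within the young range. In old control 3, Col18a1 was 1121 CPM, while Col5a3 and Col27a1 were at their lowest of all livers. As a share of total counts, collagens took 0.0993% to 0.111% in young, 0.138% to 0.177% in old control and 0.117% to 0.137% in knockout-labelled livers. The young and knockout-labelled ranges overlap in CPM and do not overlap as shares. A sum over members is a description and carries no test.

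The genes that make, modify, bind and remove collagen were read from lists and tested in the same fit. Their counts can be set beside the 14.1% of all genes called higher and 8.66% called lower with age. Of 19 proteoglycans and other fibril partners tested, 8 rose with age and none fell. The largest were Podn at 1.32, Prelp at 1.26, Lum (lumican) at 1.21, Bgn (biglycan) at 1.11 and Fbn1 (fibrillin-1) at 1.07. Dcn, decorin, rose by 0.99 from 91.2, 99.9 and 132 CPM to 195, 260 and 189 CPM (SE 0.18, adjusted p = 0.00905), without overlap.

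Partners of the basement membrane gave the same count, 8 higher and 0 lower of 18. Laminin chains led, with Lama1 at 1.45, Lama4 at 1.30, Lama2 at 1.26 and Lamb1 at 1.22, followed by Smoc2 at 1.07. Lama1, which encodes a laminin alpha chain, rose from 1.59, 2.44 and 2.47 CPM to 5.21, 8.07 and 4.53 CPM (SE 0.27, adjusted p = 0.00913). It was also one of the few listed genes called in knockout-labelled against young livers (1.27, adjusted p = 0.0187).

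Enzymes gave mixed counts. Of 19 genes for chain synthesis and folding, 3 rose (Fkbp10 at 1.44, P3h3 at 1.02 and Crtap at 0.80) and 2 fell (P4ha2 at −0.94 and P3h1 at −0.60), all of them modifiers or folding helpers of procollagen. Serpinh1, the collagen chaperone HSP47, had 24.8, 26.1 and 45.4 CPM in young and 36.2, 44.5 and 19.0 CPM in old control livers (0.05, adjusted p = 0.930). Of 12 genes for processing and crosslinking, 2 rose, Pcolce at 1.16, an enhancer of C-propeptide cleavage, and Pxdn at 1.15, the peroxidase that crosslinks type IV collagen. The lysyl oxidases Loxl1 (0.94, adjusted p = 0.0642) and Lox (−0.19, adjusted p = 0.836) were not called.

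Genes of collagen breakdown rose in 5 of 16 cases and fell in none. They were the proteases Mmp2 at 1.85, Mmp13 at 1.51 and Mmp14 at 0.91, and the uptake receptors Mrc2 at 1.56 and Mrc1 at 1.21. Among the inhibitors on this list, Timp1 was at 0.31 (adjusted p = 0.694), Timp2 at 0.77 (adjusted p = 0.0840) and Timp3 at 0.56 (adjusted p = 0.0809), none of them called. Of 13 collagen receptors 3 rose, Lair1 at 2.03, Ddr2 at 0.80 and Itgb5 at 0.51, while Ddr1 was at 0.51 (adjusted p = 0.235). Of 21 genes of TGF-beta and profibrotic signalling, 5 rose and 1 fell. Tgfb1 led at 1.57 (adjusted p = 0.0130), with 9.06, 6.596 and 7.86 CPM in young and 13.5, 38.0 and 18.4 CPM in old control livers, followed by Pdgfb at 1.27, Pdgfrb at 1.17 and Pdgfra at 0.98. Yap1 fell by 0.68, and Ccn2, a target of this pathway, was at 1.42 (adjusted p = 0.0706). Between knockout-labelled livers and old controls, none of these 7 lists had a gene called in edgeR's test. The 37 genes called with age in these lists also depended on single livers: 3 of them (Lair1, Lama1 and Prelp) were still called without young 2, 11 without old control 2, 16 without young 1 and 36 without old control 3.

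Markers of some cell types differed between the same groups. Of 12 stellate cell markers 10 were called higher with age and none lower, and their summed level was 237 to 354 CPM in young livers, 433 to 664 CPM in old controls and 383 to 449 CPM in knockout-labelled livers. Among them, Dcn, Ecm1 and Pdgfrb are also on the lists above. Of 12 markers of liver endothelium 10 were called higher, with sums of 232 to 321, 450 to 533 and 306 to 388 CPM. Of 10 leukocyte markers 8 were called higher, with sums of 150 to 211, 307 to 1155 and 249 to 538 CPM, and the highest sum was in old control 2. Of 8 portal fibroblast markers tested none was called (summed level of the 10 listed 12.7 to 41.1, 26.2 to 35.2 and 19.9 to 26.8 CPM), and of 8 cholangiocyte markers none either (55.6 to 115, 102 to 142 and 87.1 to 176 CPM). Smooth muscle had 2 of 7 called higher, Mylk and Smtn (69.6 to 180, 118 to 128 and 89.6 to 100.4 CPM). The other 5 were below 0 and not called, and the median log2 change of the list was −1.07. Mesothelium had 1 of 4 called higher, Wt1, with 2 of the 4 above 0. Hepatocytes had 2 of 10 called lower, Hnf4a and Tat. No marker of any list was at 0 in every liver. Stellate markers were highest in old control 2, at 664 CPM, as were 12 collagen chains, whereas the lowest stellate sum was in young 1, at 237 CPM, and not in young 2, at 255 CPM. Young 3 stood apart from the other young livers, with smooth muscle markers at 180 CPM against 74.4 and 69.6, portal fibroblast markers at 41.1 CPM against 16.6 and 12.7, and the highest young level in 17 of 28 collagen chains. Without it, 9 chains were called with age. Over the 7 lists and the markers together, 67 genes were called with age, of which 6 were still called without young 2, 25 without old control 2 and 31 without young 1. Without young 2 this left Reln among the stellate markers, Eng and Fcgr2b among the endothelial ones and no leukocyte marker. The part of these cell types in the collagen results was not tested.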

How the data were processed

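Polyadenylated RNA of whole livers was sequenced as paired reads on an Element AVITI instrument, per the labels' protocols. The authors deposited a table of raw counts, which holds whole numbers for each gene symbol and liver and was not normalized. The submitters' processing notes name FastQC 0.11.8, Trim Galore 0.4.4, STAR 2.5.3a, HOMER and the mm10 build. The annotation, the use of strand and the treatment of reads with several positions are not given in the sources used here, so overlapping genes could not be separated.

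Counts were tested with edgeR 4.0.16 in R 4.3.3 (quasi-likelihood test, TMM factors, filterByExpr with a minimum count of 10 and total of 15), with 1 coefficient for each of 3 groups, or 4 where the guides were separated. Benjamini-Hochberg adjustment covered all genes tested, and a gene was called at an adjusted p under 0.05. The test was checked on simulated counts. CPM values use the TMM factors, and adjusted p-values are from edgeR unless another tool is named. Levels per kilobase and gene positions use GENCODE M21 on GRCm38. Fold changes are log2, old minus young and knockout-labelled minus control. The biological coefficient of variation was 21.8%. Alternatives were DESeq2 1.42.0, limma voom (limma 3.58.1), other size factors, no filter, only the groups compared, a size threshold and leaving out each liver.

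Per-liver values are given for called members and for the leading chains of each class. Other genes are the 5 with the largest change among those called per list, at most, a few set regulators, and some named to describe their list. Members, classes and gene lists were chosen with earlier results of these data known. The labels name no animals. The p-values set a difference between groups against the spread between these livers, estimated over all groups of the fit. Every pair of livers in a group differed beyond counting noise (smallest chi-square 20.3 times its degrees of freedom). The smallest detectable amount of 3 counts is a counting limit only, whereas SDs and SEs include the spread between livers. Reads carry no molecular identifiers. Ratios of counts and coefficients of variation are descriptions. Replicate numbers follow the order of the records and only name a liver. The title number of old control 3 lies apart from those of the other livers, and what this stands for was not tested.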

Additional observations from a re-analysis of the deposited data

Results flagged for a closer look

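In the 4 knockout-labelled livers, 1 liver stood apart from the other three for 4 of 37 values examined, where about 1.85 are expected by chance at 1 in 20. Its gap to the nearest liver, as a share of the group's whole range, was above the critical value of Dixon's test for 4 samples. Col27a1 was highest in liver 4 (guide 2), at 110 CPM against 49.5 to 53.9 CPM (gap 0.927 of the range). Col6a2 was highest in liver 1 (guide 4), at 10.6 CPM against 6.59 to 7.06 CPM (0.880). Col6a5 was highest in the same liver 1, at 1.10 CPM against 0.141 to 0.175 CPM (0.965), and Col8a1 was highest in liver 3 (guide 2), at 0.377 CPM against 0.116 to 0.131 CPM (0.944). The last 2 chains lie near the smallest detectable amount.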

How the results depend on the processing

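With age, 6 chains were called in the main test and 6 with other size factors (RLE), 8 with DESeq2, 5 with limma voom and 4 at an absolute log2 change of 1 or more. Scaling by total counts alone called 12 and moved the median of all genes by 0.31, and fitting only the groups compared called 1. Leaving out 1 liver at a time gave 0 to 10 calls. Without the TMM factors the young mean was 182 CPM for the fibrillar sum and 826 CPM for the basement membrane sum. The knockout-labelled mean of the other classes was then 88.5 CPM. For the basement membrane sum the young mean then lay below the knockout-labelled mean, the reverse of the order with TMM factors. Knockout-labelled against young livers gave 0 calls in the main test, 1 with DESeq2, 5 with total counts and 5 with only the groups compared. Guide 2 against old controls gave 0 and, with DESeq2, 1. The log2 change with age turned for Col27a1 (0.090) and Col13a1 (0.26) with total counts. Leaving out 1 liver moved it from −1.29 to 0.16 for Col27a1, −0.27 to 1.18 for Col5a3, −0.15 to 0.35 for Col4a1, −0.25 to 0.23 for Col13a1 and −0.00072 to 0.19 for Col18a1. Knockout-labelled livers against old controls gave 0 calls under every alternative run. With the length of all annotated exons, an alternative chosen after seeing the data, 11 of 34 chains kept their rank by level per kilobase and the largest move was 3 ranks. The cause of these shifts was not tested. Where leaving out a liver left 1 liver for a guide, that liver was assumed to vary like the other groups. No paired analysis was possible because no replicate numbers shared between groups are in the labels. At 0.131 to 0.198 CPM for 3 counts, 6 of the 34 chains were too low to be tested for age.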
